A study of Mus musculus with 13 samples.

Results

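SNARE proteins and the factors that load and unload them were followed by their RNA in the developing mouse heart. The members are 34 genes given as a list of symbols: syntaxins, SNAP-25 relatives, VAMPs and other SNAREs, the disassembly pair Nsf and Napa, and Sec1/Munc18 (SM) proteins. Of these, 33 were found among the 33821 named genes of the deposited tables, and Vamp7 is not analysed here. All 33 passed the filter on low values (a mean of at least 1 FPKM) in both sets of libraries, and every one of their 151 isoforms was at least 200 nucleotides long.

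The samples were wild-type mice of the FvB strain, with no treatment other than isolation, and atria were removed in every case. Ventricles were sampled at E17 and at PN1, PN10, PN28 and PN90 (embryonic and postnatal days), with 1 library each. Isolated cardiomyocytes, the contracting muscle cells, gave 2 neonatal libraries (titled PN1-2 and PN1), 1 at PN30 and 1 at PN67. Cardiac fibroblasts, the cells that make the connective tissue, gave 2 neonatal libraries (titled PN1-3 and PN1-2, both with an age field of PN1), 1 at PN28 and 1 at PN60. Neonatal cardiomyocytes were separated by preplating and those of PN30 and PN67 by Langendorff perfusion, so stage and isolation method cannot be told apart in them. Fibroblasts of every age were obtained by digestion and preplating. Ventricle RNA was depleted of ribosomal RNA before ScriptSeq libraries were made, whereas cells went through a TruSeq protocol, so ventricle and cell levels are not compared.

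SNAREs sit on vesicles and on target membranes, and membranes fuse when Q-SNAREs of the target (syntaxins, SNAP-25 relatives and small Q-SNAREs) zip into a helical bundle with an R-SNARE (a VAMP, Ykt6 or Sec22b). SM proteins guide this assembly, and the ATPase NSF with its adaptor alpha-SNAP (Napa) takes spent bundles apart. In muscle cells, fusion with the surface membrane delivers the insulin-regulated glucose transporter and other cargo, while other SNAREs serve endosomes, the Golgi and the fusion of autophagosomes with lysosomes.

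Levels are FPKM (fragments normalised to transcript length and to library size) summed over the isoforms of a gene and scaled between libraries by their median ratio. Changes are differences of log2(FPKM + 1) with their standard errors (SE) from limma, which understate the change of weakly expressed genes. A gene counted as changed at a Benjamini-Hochberg adjusted p below 0.05 over all genes tested. The later class of a cell type holds its 2 later ages, which have no replicate of their own. Nothing in the labels says that libraries of a class came from separate animals, so p-values measure the spread between these libraries, which may be technical. An exact permutation of 2 libraries against 2 could not go below p = 0.333.

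Each library listed 19537 to 23492 transcripts at 1 FPKM or more. Fragment totals were not used, and relative depth was read from the median coverage per unit of FPKM: 30.4 to 32.8 for fibroblast libraries, against 21.8 to 25.1 for cardiomyocytes and 19.5 to 25.0 for ventricles. The 9 cardiomyocyte markers summed to 12827 and 11877 scaled FPKM in the neonatal cardiomyocyte libraries and to 45945 and 44819 in the later ones. In the neonatal fibroblast libraries they summed to 1328 and 1130, which is 10.7% and 9.15% of the neonatal cardiomyocyte mean, and in the later fibroblasts to 27.0 and 35.1. The sum of 6 fibroblast markers was 1455 to 2043 in fibroblasts and 179.6 to 223 in cardiomyocytes. The 7 macrophage and leukocyte markers rose in fibroblasts (all 7 called, from sums of 109.9 and 203.6 to 1050.3 and 845.8). In cardiomyocytes, 6 endothelial markers fell (sums of 1050.2 and 1254 against 292 and 298), as did 3 erythroid ones (15377 and 20440.0 against 1103 and 712). In the same cells the leukocyte sum went from 76.1 and 100.2 to 254.7 and 272.3 (4 of 7 markers rose and 1 fell), and that of 6 smooth muscle and pericyte markers from 97.6 and 114.3 to 271.4 and 295.4 (4 of 6 rose). Snap25, the neuronal relative of Snap23, and the neuronal gene Syt1 reached at most 0.178 and 0.0850 FPKM in any cell library. The part of these other cell types in the results below was not tested, and in bulk RNA fewer cells of a type and less RNA per cell cannot be told apart.

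The isoforms of Snap23 and Stx3 are described first, since their use in cardiomyocytes changed most. Snap23 makes the widely expressed relative of neuronal SNAP-25 that brings Q-SNARE helices to the plasma membrane (mm9 chr2:120393407-120426991). Isoform Snap23-203 contains a coding exon of 33 nucleotides (exon 6 of 9) that Snap23-202 skips. GENCODE M21 gives both isoforms the same lengths as the deposited tables (2730 and 2723 nucleotides). These lengths differ by less than the exon is long, so the isoforms also differ outside it. Whether other Snap23 isoforms carry the exon was not examined. The exon is a whole number of codons long (11 codons), so by itself it keeps the reading frame.

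Stx3 makes syntaxin 3, a plasma membrane syntaxin known from the apical surface of epithelia (mm9 chr19:11849609-11893893). Isoforms Stx3-202 and Stx3-203 share their upstream coding exons in M21 and then use different ones: exon 9 is chr19:11783026-11783136 in Stx3-202 and chr19:11782800-11782910 in Stx3-203 (GRCm38, minus strand). Both are 111 nucleotides long and lie 115 nucleotides apart, and 68 of their 111 positions (61.3%) are identical without gaps. The coding parts of the next exon are 81 nucleotides in Stx3-202 and 75 in Stx3-203. Capitals mark the positions at which the paired exons differ. The deposited lengths of these isoforms (3269 and 2457 nucleotides) differ from those in M21 (2810 and 2430), so the authors' models may end elsewhere.
Stx3-202: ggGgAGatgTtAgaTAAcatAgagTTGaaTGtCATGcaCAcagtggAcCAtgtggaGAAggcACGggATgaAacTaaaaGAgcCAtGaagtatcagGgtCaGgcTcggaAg
Stx3-203: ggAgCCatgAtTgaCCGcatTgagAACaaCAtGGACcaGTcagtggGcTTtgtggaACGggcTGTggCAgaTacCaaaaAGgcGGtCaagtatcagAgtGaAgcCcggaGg

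The first comparison asked how these genes changed in cardiomyocytes after the neonatal stage. Of the 33 members, 18 rose and 6 fell (72.7%), against 67 percent of the 12076 genes tested (37.2 percent up and 29.8 percent down), so the share called was near the background. The median change of the members was 0.41 and that of all genes 0.10. The split depends on scaling: with FPKM as deposited 11 rose and 10 fell, and with mitochondrial genes removed and equal sums 9 rose and 11 fell, while the median of all genes moved to -0.19 and -0.28. Leaving out 1 library gave 16 to 26 calls. Under all alternatives 12 members kept their call and direction: Vamp5, Stx17, Snap47, Vamp2, Vti1a, Vti1b, Vamp1, Stx8 and Vamp4 rose, and Stx6, Stx3 and Stx5a fell.

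In fibroblasts 12 members rose and 3 fell (45.5%, against 40.5 percent of all genes, 19.7 percent up and 20.8 percent down), with a median change of 0.20 against -0.02 over all genes. With FPKM as deposited, or with mitochondrial genes removed and equal sums, 5 rose and 9 fell, and the median of all genes moved to -0.29 and -0.30. Leaving out 1 library gave 6 to 21 calls. The count was 9 without either neonatal cardiomyocyte library, 7 without the first neonatal fibroblast library and 6 without the second. Napa, Stx6, Vamp4, Stx4a and Stx3 (up) and Bet1 (down) kept their call under all alternatives.

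Across both cell types, 7 members rose in each (Napa, Nsf, Stx4a, Stx7, Vamp3, Vamp4 and Vti1b) and 2 fell in each (Stx2 and Stx5a). Opposite calls were made for 3: Stx3 and Stx6 fell in cardiomyocytes and rose in fibroblasts, and Bet1 did the reverse. The share of all genes with such pairs of calls was not computed, so these counts have no background beside them. Of the members named, only Vamp4, Stx3 and Stx6 kept both calls under all alternatives. The difference between the changes was itself tested as an interaction and was called for 18 members (54.5%, against 58.6 percent of all genes, 32.2 percent up and 26.3 percent down), 11 with a positive difference (cardiomyocyte change minus fibroblast change) and 7 with a negative one. With mitochondrial genes removed and equal sums the split was 9 and 9. The count was 11 without either neonatal cardiomyocyte library or without the PN67 one. All of these comparisons share libraries, so their calls are not independent of each other.

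**Figure D1:**
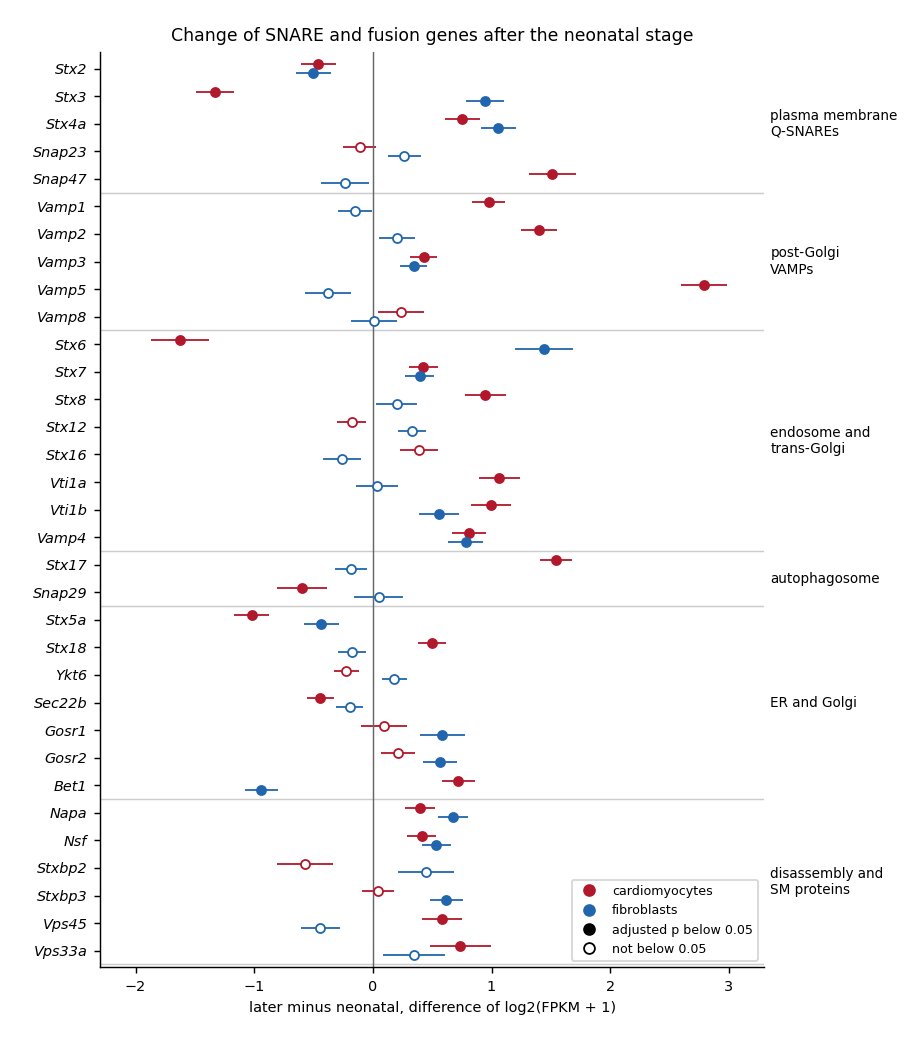
Change from neonatal to later libraries for the 33 members, grouped by role, on the x axis as a difference of log2(FPKM + 1) with SE bars. Red points are cardiomyocytes and blue points fibroblasts; filled points passed an adjusted p below 0.05. Vamp5 is farthest right at 2.79 in cardiomyocytes, and Stx6 and Stx3 lie on opposite sides of 0 in the cell types.

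Among the Q-SNAREs of the plasma membrane, Stx4a makes syntaxin 4, a receptor for vesicles carrying the glucose transporter in muscle and fat. Its level was 29.8 and 30.2 scaled FPKM in neonatal cardiomyocytes and 48.8 and 53.7 at PN30 and PN67, and in fibroblasts 36.8 and 36.3 against 88.2 at PN28 and 67.5 at PN60. It rose by 0.75 ± 0.15 (SE, adjusted p = 0.00252) and 1.06 ± 0.15 (adjusted p = 0.00126), although with mitochondrial genes removed the cardiomyocyte change was 0.29 and not called (adjusted p = 0.0849). In each cell type the later libraries lay above the neonatal ones, and it was the strongest of the plasma membrane Q-SNAREs in 7 of 8 cell libraries.

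Stx3 went in opposite directions. It stood at 8.20 and 9.72 in neonatal cardiomyocytes and at 2.80 and 3.08 later, a fall of 1.33 ± 0.16 (adjusted p = 0.0002). In fibroblasts it was at 6.23 and 7.90 and then at 15.2 and 13.7, a rise of 0.95 ± 0.16 (adjusted p = 0.00295). The groups did not overlap in either cell type, and the difference of the changes was -2.28 ± 0.22 (adjusted p = 0.000142).

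Snap47, another SNAP-25 relative, was at 7.33 and 5.91 in neonatal and 19.8 and 21.4 in later cardiomyocytes (1.51 ± 0.20, adjusted p = 0.000343), and stayed between 1.56 and 2.82 in fibroblasts. Averaged over stages it was higher in cardiomyocytes by 1.94 ± 0.14 (adjusted p = 8.06e-06). Its exons overlap those of Jmjd4 on the opposite strand, and Stx4a, Snap29, Stx18, Gosr2 and Vti1b also overlap exons on the opposite strand. Use of strand in the authors' estimates is not stated, so reads of such pairs may be mixed.

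Snap23 was at 28.3 and 31.1 and then 28.6 and 26.2 in cardiomyocytes and at 34.6 and 30.6 and then 42.7 and 36.2 in fibroblasts, and neither change was called (-0.11 ± 0.14 and 0.26 ± 0.14, adjusted p = 0.491 and 0.161). Stx2, another plasma membrane syntaxin, fell by 0.46 ± 0.15 in cardiomyocytes (adjusted p = 0.0246) and by 0.50 ± 0.15 in fibroblasts (adjusted p = 0.0294), from 11.4 to 13.8 FPKM down to 7.97 to 10.2. The cardiomyocyte call was lost without the PN30 library (adjusted p = 0.159) and without either neonatal library, and the fibroblast call without the first neonatal fibroblast library (adjusted p = 0.140) or any of 4 other libraries.

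Among the post-Golgi VAMPs, Vamp5 had the greatest change of any member in cardiomyocytes. Vamp5, a VAMP described in skeletal muscle and heart (mm9 chr6:72318043-72330462, next to Vamp8), was at 4.72 and 3.89 scaled FPKM in neonatal cardiomyocytes. It reached 33.6 at PN30 and 37.9 at PN67, while all fibroblast libraries lay between 0.961 and 2.13. The rise of 2.79 ± 0.19 (adjusted p = 1.74e-05) was 6.93-fold on the FPKM + 1 scale, and the difference from the fibroblast change was 3.17 ± 0.27 (adjusted p = 7.84e-05). Most of it was isoform Vamp5-202, which went from 4.30 and 3.60 to 31.4 and 35.0.

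Vamp2, synaptobrevin 2, which works with syntaxin 4 and Snap23 in glucose transporter delivery, was at 14.5 and 13.9 in neonatal cardiomyocytes and 38.9 and 39.2 later. In fibroblasts its 4 libraries lay between 18.6 and 25.8, so neonatal cardiomyocytes were below all fibroblasts and later ones above them. The rise was 1.40 ± 0.15 (adjusted p = 0.000126) and the difference from fibroblasts 1.20 ± 0.22 (adjusted p = 0.00233). Vamp1, its close relative, was low throughout: 1.69 and 1.38 and then 4.21 and 3.75 in cardiomyocytes (0.98 ± 0.14, adjusted p = 0.000523), and at most 0.725 in fibroblasts.

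Vamp3, cellubrevin of recycling endosomes, rose by 0.43 ± 0.11 in cardiomyocytes (adjusted p = 0.0107) and by 0.34 ± 0.11 in fibroblasts (adjusted p = 0.0439), within 29.97 to 42.6 FPKM. These calls depend on scaling: with mitochondrial genes removed its cardiomyocyte change was -0.03, and with FPKM as deposited its fibroblast change was -0.000176. They were also lost without the second neonatal library of the cell type concerned (adjusted p = 0.0672 and 0.196), and without any of 2 other libraries in cardiomyocytes and 6 in fibroblasts. Vamp8, the late endosomal and lysosomal VAMP, did not pass in either cell type but was higher in cardiomyocytes (45.4, 43.3, 51.9 and 53.0) than in fibroblasts (19.7, 25.6, 27.4 and 18.7) by 1.06 ± 0.14 (adjusted p = 0.00021).

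Since FPKM is per length, the 5 post-Golgi VAMPs can be set side by side within a library. Together they summed to 96.7 and 92.5 scaled FPKM in neonatal cardiomyocytes and to 171.2 and 173.2 later. Vamp5 was 4.88% and 4.20% of that sum in neonatal cardiomyocytes and 19.6% and 21.9% later, and Vamp8 47.0% and 46.8% and then 30.3% and 30.6%. In fibroblasts the sum lay between 73.7 and 89.8, and Vamp5 made up 1.07% to 2.67% of it.

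**Figure D2:**
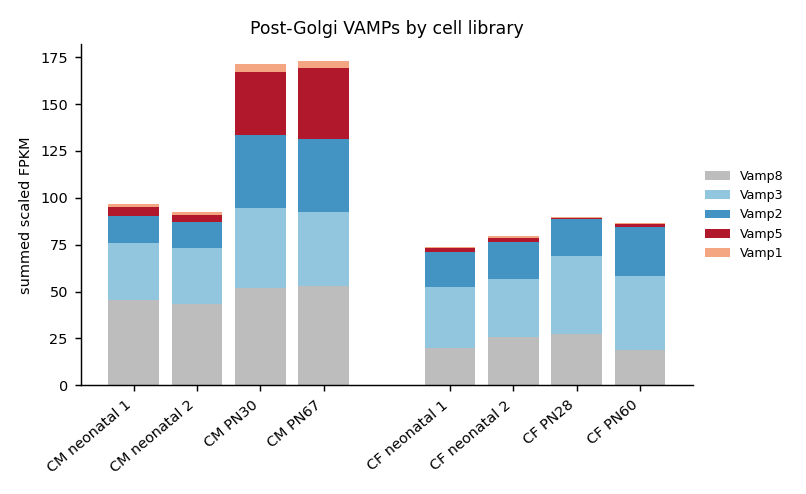
Summed scaled FPKM of the 5 post-Golgi VAMPs in the 8 cell libraries (CM, cardiomyocytes; CF, fibroblasts), 1 bar per library, stacked by gene on a linear axis from 0. The 2 later cardiomyocyte bars reach 171.2 and 173.2, with Vamp5 and Vamp2 as the parts that grew most.

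SNAREs of endosomes and the trans-Golgi network moved apart. Stx6, the syntaxin that cycles between the trans-Golgi network and early endosomes (mm9 chr1:157005833-157050647), was at 29.1 and 36.6 scaled FPKM in neonatal cardiomyocytes and at 11.2 and 8.74 later. In fibroblasts it was at 23.5 and 19.6 and rose to 76.1 at PN28 and 47.4 at PN60. The changes were -1.63 ± 0.24 (adjusted p = 0.000638) and 1.44 ± 0.24 (adjusted p = 0.00296), with a difference of -3.07 ± 0.34 (adjusted p = 0.000245). No neonatal library overlapped a later one in either cell type.

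The partners of Stx6 in that pathway did not share this pattern. Vti1a, a small Q-SNARE of the trans-Golgi network, was at 2.47 and 2.09 and then at 5.44 and 6.29 in cardiomyocytes (1.07 ± 0.18, adjusted p = 0.00107) and between 1.72 and 2.58 in fibroblasts. Vamp4 rose in both, from the range 4.22 to 5.14 to the range 8.22 to 9.68 in cardiomyocytes (0.81 ± 0.14, adjusted p = 0.00162) and from 5.27 to 5.47 up to 9.94 to 9.95 in fibroblasts (0.78 ± 0.14, adjusted p = 0.0045). Stx16 passed in neither cell type. Its difference of changes was 0.65 ± 0.23 (adjusted p = 0.0404), from 7.85 and 6.41 to 9.17 and 10.004 in cardiomyocytes and from 6.04 and 6.83 to 5.80 and 4.65 in fibroblasts, and it was lost without any of 7 libraries (adjusted p up to 0.155).

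The late endosomal set of Stx7, Stx8 and Vti1b rose in cardiomyocytes. Stx8 was at 12.3 and 11.3 and then at 23.5 and 23.7 (0.95 ± 0.17, adjusted p = 0.00183), against 6.004 to 9.16 in fibroblasts. Vti1b was at 16.4 and 17.0 and then at 29.0 and 40.5 (1.00 ± 0.17, adjusted p = 0.00118), and in fibroblasts at 13.5 and 14.5 and then at 21.6 and 20.6 (0.56 ± 0.17, adjusted p = 0.0314). Later libraries were above neonatal ones in each of these rises.

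The fibroblast call of Vti1b was lost with FPKM as deposited (0.22, adjusted p = 0.282) and without the first neonatal fibroblast library (adjusted p = 0.136) or any of 4 others. Its exons overlap those of Arg2 on the opposite strand. Stx7 rose by 0.43 ± 0.12 (adjusted p = 0.0161) and 0.40 ± 0.12 (adjusted p = 0.0357), but with mitochondrial genes removed its cardiomyocyte change was -0.02. Its fibroblast change was then 0.07 (adjusted p = 0.654), and 0.06 with FPKM as deposited (adjusted p = 0.664), so neither was called. Without the second neonatal library of the cell type the calls were lost too (adjusted p = 0.0889 and 0.199), as they were without any of 3 other libraries in cardiomyocytes and 6 in fibroblasts. The difference of changes was called for Stx8 (0.74 ± 0.24, adjusted p = 0.0318) and for Stx12, the recycling endosome syntaxin (-0.51 ± 0.17, adjusted p = 0.0347). Stx12 was at 24.2 and 24.5 and then 20.7 and 22.04 in cardiomyocytes and at 23.9 and 21.4 and then 29.7 and 27.7 in fibroblasts. Each of these differences was lost without any of the 4 cardiomyocyte libraries or the second neonatal fibroblast library (adjusted p up to 0.111 and 0.113).

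The autophagosomal SNAREs split within cardiomyocytes. Stx17, the syntaxin that autophagosomes take up before they fuse with lysosomes (mm9 chr4:48137787-48199379), was at 4.51 and 3.81 in neonatal cardiomyocytes and at 13.97 and 14.01 in the later libraries. The rise was 1.54 ± 0.13 (adjusted p = 4.11e-05), and fibroblasts stayed between 1.74 and 2.21 with a difference of changes of 1.73 ± 0.19 (adjusted p = 0.000207). Its partner Snap29 fell from 14.2 to 14.9 FPKM down to 9.17 to 9.39 (-0.60 ± 0.21, adjusted p = 0.0346). That call was lost without any of 6 libraries (adjusted p up to 0.137, without the second neonatal cardiomyocyte library) and with no filter on low values (adjusted p = 0.0733). Averaged over stages, Stx17 was higher in cardiomyocytes by 1.58 ± 0.09 (adjusted p = 2.57e-06) and Snap29 higher in fibroblasts (-0.89 ± 0.15, adjusted p = 0.000801).

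**Figure D3:**
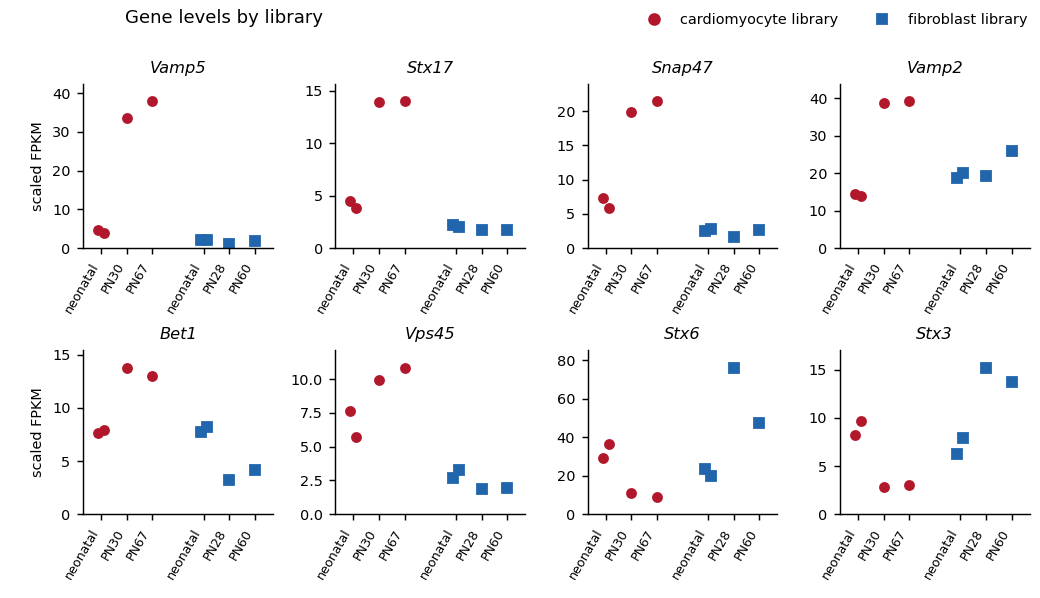
Scaled FPKM of 8 members in each of the 8 cell libraries, on linear axes from 0, with 1 point per library and the neonatal libraries side by side. In later cardiomyocytes (red circles) Vamp5, Stx17, Snap47 and Vamp2 lie above all other libraries, and Stx6 and Stx3 below all other libraries; later fibroblasts (blue squares) have the highest Stx6 and Stx3.

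Of the 7 SNAREs between the endoplasmic reticulum and the Golgi, 2 rose (Bet1 and Stx18) and 2 fell (Stx5a and Sec22b) in cardiomyocytes, which is 57.1%, against 67 percent of all genes. In fibroblasts 2 rose (Gosr1 and Gosr2) and 2 fell (Stx5a and Bet1), again 57.1%, against 40.5 percent. Stx5a, syntaxin 5 of the Golgi, fell from 34.2 and 35.6 to 16.6 and 16.7 in cardiomyocytes (-1.02 ± 0.15, adjusted p = 0.000547). In fibroblasts it fell from 52.0 and 49.6 to 32.4 and 42.9 (-0.44 ± 0.15, adjusted p = 0.0492), a call lost without any of 7 libraries (adjusted p up to 0.177, without the first neonatal fibroblast library). The difference of these changes, -0.59 ± 0.21 (adjusted p = 0.0429), was likewise lost without any of 7 libraries (adjusted p up to 0.129).

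Bet1, a small Q-SNARE of this route (mm9 chr6:4026899-4036972), was at 7.60 and 7.89 in neonatal cardiomyocytes and 13.8 and 13.005 later. In fibroblasts it was at 7.73 and 8.24 and then at 3.26 and 4.13. Levels were thus alike in the neonatal cells and apart in the later ones, with changes of 0.72 ± 0.14 (adjusted p = 0.00255) and -0.94 ± 0.14 (adjusted p = 0.00172) and a difference of 1.66 ± 0.20 (adjusted p = 0.000337). The cardiomyocyte rise was 0.29 and not called with mitochondrial genes removed (adjusted p = 0.117).

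Stx18, the syntaxin of the endoplasmic reticulum, rose in cardiomyocytes from 9.68 and 9.59 to 13.97 and 13.99 (0.49 ± 0.12, adjusted p = 0.00676) and lay between 9.56 and 11.5 in fibroblasts. With FPKM as deposited this rise was 0.16 (adjusted p = 0.248), whereas the difference from fibroblasts (0.67 ± 0.17, adjusted p = 0.0102) was called under all alternatives. Sec22b and Ykt6, the R-SNAREs of this route, were both higher in fibroblasts, with differences of -1.10 ± 0.08 (adjusted p = 8.23e-06) and -0.58 ± 0.07 (adjusted p = 0.000199). Sec22b was at 29.3, 26.9, 21.2 and 19.5 in cardiomyocytes and 56.7, 55.7, 48.7 and 49.2 in fibroblasts, and Ykt6 at 41.9, 42.7, 36.7 and 35.3 against 55.6, 54.8, 64.5 and 60.8, with no overlap. Sec22b also fell in cardiomyocytes (-0.45 ± 0.11, adjusted p = 0.00922), a call lost without the first neonatal cardiomyocyte library (adjusted p = 0.0758) and without the PN67 one. The difference of changes of Ykt6 was -0.41 ± 0.15 (adjusted p = 0.0487) and was lost without any of 7 libraries (adjusted p up to 0.147).

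Gosr1 and Gosr2, further Golgi Q-SNAREs, rose in fibroblasts by 0.59 ± 0.19 and 0.57 ± 0.14 (adjusted p = 0.0435 and 0.0163). Gosr1 was at 9.13 and 7.36 and then at 15.5 and 10.6 there, against 7.96 to 8.95 in cardiomyocytes. With FPKM as deposited both were not called (0.27 and 0.23, adjusted p = 0.238 and 0.188). Without the second neonatal fibroblast library adjusted p was 0.232 and 0.098, and the calls were lost without any of 6 other libraries for Gosr1 and without the first neonatal fibroblast library for Gosr2.

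The disassembly pair rose in both cell types. Napa, alpha-SNAP, was at 38.2 and 36.4 and then 48.0 and 50.7 in cardiomyocytes (0.40 ± 0.12, adjusted p = 0.0224), and at 60.2 and 54.6 and then 99.4 and 85.5 in fibroblasts (0.68 ± 0.12, adjusted p = 0.00428). Nsf, the ATPase, rose by 0.41 ± 0.12 (6.28 to 6.60 against 8.58 to 9.22, adjusted p = 0.0183) and 0.53 ± 0.12 (5.17 to 5.22 against 7.93 to 8.01, adjusted p = 0.011). In cardiomyocytes neither rise was called with FPKM as deposited (0.04 and 0.09), both changes were below 0 with mitochondrial genes removed (-0.07 and -0.0049), and both calls were lost without the second neonatal library (adjusted p = 0.121 and 0.111) or any of 3 others. The fibroblast call of Nsf was lost with FPKM as deposited (0.23, adjusted p = 0.158) and without either neonatal fibroblast library (adjusted p up to 0.0622).

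Among the SM proteins, Vps45, which serves endosomal syntaxins, was at 7.64 and 5.72 and then at 9.97 and 10.9 in cardiomyocytes, and at 2.69 and 3.29 and then at 1.90 and 1.95 in fibroblasts. Averaged over stages it was higher in cardiomyocytes by 1.45 ± 0.12 (adjusted p = 1.38e-05), and the changes differed by 1.03 ± 0.23 (adjusted p = 0.00687). Its cardiomyocyte rise (0.58 ± 0.16, adjusted p = 0.0147) was not called with FPKM as deposited (0.26) or without the second neonatal cardiomyocyte library (adjusted p = 0.123) or the PN67 one. Vps33a, a subunit of lysosomal tethering complexes, rose in cardiomyocytes from 6.89 to 7.10 FPKM up to 12.05 to 12.6 (0.74 ± 0.26, adjusted p = 0.0355). That call was lost without any of 6 libraries (adjusted p up to 0.125, without the PN67 cardiomyocyte library), with FPKM as deposited (0.41, adjusted p = 0.166) and with no filter on low values (adjusted p = 0.0859).

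Stxbp3, Munc18c, the SM partner of syntaxin 4, rose in fibroblasts from 14.8 and 12.8 to 22.9 and 20.5 (0.62 ± 0.14, adjusted p = 0.010) and stayed between 10.5 and 12.005 in cardiomyocytes. The rise was lost without the second neonatal fibroblast library (adjusted p = 0.0775) and with FPKM as deposited (0.29, adjusted p = 0.091). Its difference of changes was -0.58 ± 0.20 (adjusted p = 0.0362), and that of Stxbp2, Munc18-2, was -1.02 ± 0.33 (adjusted p = 0.031). Stxbp2 was at 4.46 and 4.68 and then 2.98 and 2.52 in cardiomyocytes and at 1.96 and 3.42 and then 4.89 and 3.13 in fibroblasts, where the groups overlapped. Both differences were lost without any of 6 libraries (adjusted p up to 0.139 and 0.0991).

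Averaged over stages, 12 members were higher in cardiomyocytes and 10 in fibroblasts (66.7%, against 76.6 percent of all genes, 37.1 percent up and 39.5 percent down), and with mitochondrial genes removed 10 and 14. Beside Vamp5 and Snap47, those highest in cardiomyocytes were Stx17, Vps45, Vamp1, Stx8 and Vamp8. The members farthest toward fibroblasts were Sec22b, Stx6, Snap29, Stx3, Stx5a and Napa. Some of these gene levels are largely transcripts not annotated as coding. In cells the noncoding Stx8-204 of 552 nucleotides held 62.4% to 76.3% of Stx8 FPKM, and Vps45-203 held 39.6% to 65.6% of Vps45. Sec22b-204, annotated for nonsense-mediated decay, held 69.7% to 75.4% of Sec22b. A fit on cell type without stage called 11 members and 37.5 percent of all genes. Stx6, Stx3 and Stx5a were not called by it (limma, adjusted p = 0.200, 0.148 and 0.068). For Stx6 and Stx3 the average over stages hides a crossing. In neonatal libraries Stx6 was higher in cardiomyocytes (29.1 and 36.6) than in fibroblasts (23.5 and 19.6). Neonatal Stx3 was too (8.20 and 9.72 against 6.23 and 7.90).

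Of the 56 other SNAREs, SM proteins, regulators and tethers listed for comparison, 47 were tested in cells. In cardiomyocytes 24 rose and 11 fell (74.5%, against 67 percent of all genes), in fibroblasts 3 rose and 6 fell (19.1%, against 40.5 percent), and the difference of changes was called for 29 (61.7%, against 58.6 percent). Stx11, a syntaxin known from leukocytes, was at 10.9 and 13.7 and then 0.793 and 0.531 in cardiomyocytes, and at 12.1 and 11.6 and then 55.9 and 73.3 in fibroblasts. Its difference of changes was -5.34 ± 0.26 (adjusted p = 9.84e-06). The summed leukocyte markers were higher in the later libraries of both cell types, and in cardiomyocytes 4 of 7 rose. Cd14, another of them, went from 29.3 and 37.0 to 8.83 and 14.8 in cardiomyocytes. In fibroblasts Cd14 went from 38.4 and 55.9 to 339 and 246. The part of leukocytes in the Stx11 levels was not tested. Of 26 tethering factors, 14 rose and 3 fell in cardiomyocytes (65.4%, near the 67 percent of all genes). Cog6 and Cog7, subunits of the Golgi tether COG, rose by 1.73 ± 0.13 and 1.88 ± 0.17 (adjusted p = 2.07e-05 and 5.04e-05).

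Isoform use was tested as the share of an isoform in its gene's FPKM, and calls needed an adjusted p below 0.05 together with a shift of 10 percentage points or more. In cells 61 isoforms of 21 members could be tested. In cardiomyocytes 14 isoforms of 10 genes were called (23.0%, against 17.9 percent of the 11170 isoforms tested), and 8 without the first neonatal cardiomyocyte library. In fibroblasts 2 isoforms of 1 gene were called (3.28%, against 3.85 percent), and 0 without either neonatal fibroblast library. The difference of changes was called for 8 isoforms of 5 genes (13.1%, against 14.4 percent), in a contrast added after the values were seen. Cardiomyocytes and fibroblasts differed in 14 isoforms of 8 genes (23.0%, against 17.1 percent).

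In cardiomyocytes the level of Snap23 had no called change under the main scaling, while its isoform use changed. That is not evidence of a constant level, since levels depend on scaling. The share of Snap23-203, which contains the 33-nucleotide exon, was 7.07% and 4.34% in neonatal cardiomyocytes and 38.8% at PN30 and 46.2% at PN67. In fibroblasts it was at most 1.076%. The share rose by 36.8 points in cardiomyocytes (adjusted p = 0.000181), and the difference from the fibroblast change was 37.4 points (adjusted p = 0.00097).

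Snap23-203 went from 2.00 and 1.35 to 11.1 and 12.1 scaled FPKM, and Snap23-202 from 19.2 and 24.2 to 13.5 and 11.3. The authors' deposited 95% bounds for Snap23-203, before scaling, were 2.09 to 2.57 and 1.35 to 1.73 FPKM in the neonatal libraries and 9.47 to 10.6 and 10.2 to 11.4 in the later ones, so they lie apart. Such bounds describe the estimate within a library, not the spread between libraries. The share of Snap23-202 fell by 27.7 points (adjusted p = 0.0012), from 67.7% and 77.8% to 47.1% and 43.1%, while in fibroblasts it was 73.2% to 78.9%.

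Stx3 changed in level and in isoform. Stx3-202 held 89.9% and 91.8% of the gene in neonatal cardiomyocytes and 45.1% and 50.2% later, and 92.1% to 94.2% in all 4 fibroblast libraries. Stx3-203 went from 10.1% and 8.19% to 54.3% and 43.6% in cardiomyocytes. Their shares changed by -43.2 and 39.8 points (adjusted p = 7.72e-05 and 0.000142), and both differed from fibroblasts by more than 40 points (-44.5 and 41.0, adjusted p = 0.000315 and 0.000713).

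In absolute terms Stx3-202 went from 7.38 and 8.92 to 1.26 and 1.55 scaled FPKM, and Stx3-203 from 0.829 and 0.796 to 1.52 and 1.34. The fall of the gene was thus a fall of Stx3-202. These are low levels: the deposited bounds of Stx3-203 before scaling were 0.837 to 1.09 and 0.786 to 1.03 FPKM in the neonatal libraries and 1.22 to 1.53 and 1.04 to 1.36 in the later ones. In fibroblasts the rise of Stx3 was one of Stx3-202, from 5.74 and 7.35 to 14.2 and 12.9.

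**Figure D4:**
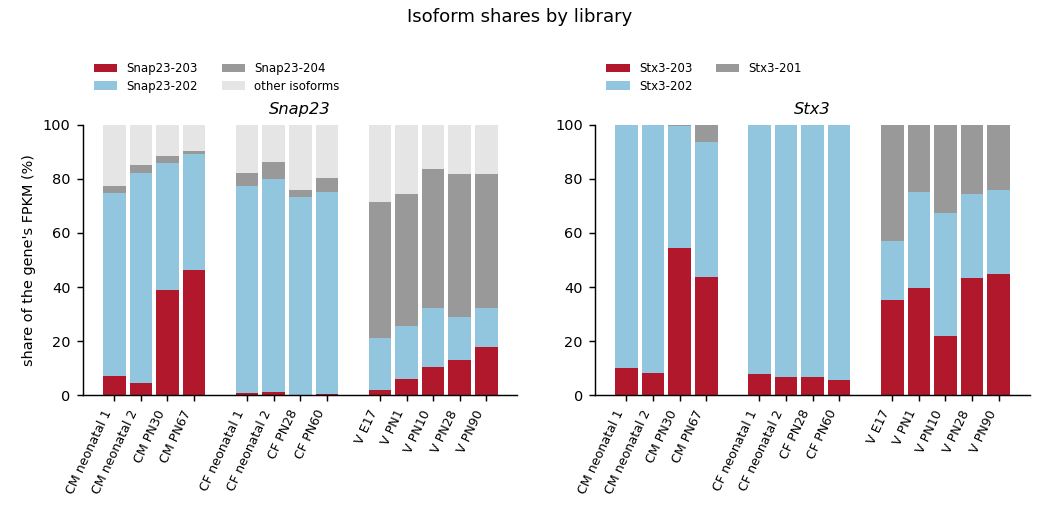
Share of each isoform in its gene's FPKM (y axis, percent) in all 13 libraries (CM, cardiomyocytes; CF, fibroblasts; V, ventricles), 1 stacked bar per library. Snap23-203 and Stx3-203 (red) take 38.8% and 54.3% at PN30 in cardiomyocytes and stay at most 1.076% and 7.86% in fibroblasts, while the short Snap23-204 holds 48.6% to 52.9% of ventricle Snap23.

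The other called isoforms in cardiomyocytes were smaller shifts, none of which reached 20 points. The main coding isoforms Napa-201 (59.96% and 63.8% to 78.6% and 77.6%), Stx4a-201 (56.7% and 52.8% to 70.9% and 69.3%) and Vamp2-201 (69.1% and 67.7% to 85.01% and 86.5%) gained share, at adjusted p = 0.000793, 0.00214 and 0.000438. In each, no neonatal library overlapped a later one, and the fibroblast shares lay below those of later cardiomyocytes. The difference from fibroblasts was called for Napa-201 (13.6 points, adjusted p = 0.0127) and Stx4a-201 (15.8 points, adjusted p = 0.0155), and lost for Napa-201 without the first neonatal cardiomyocyte library (adjusted p = 0.0547) and for Stx4a-201 without the second (adjusted p = 0.0652) or the PN30 one.

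Stx5a was the member whose isoforms shifted in both cell types. Stx5a-201 rose from 58.0% and 58.6% to 73.9% and 70.3% in cardiomyocytes and from 48.0% and 49.5% to 62.9% and 70.0% in fibroblasts, in exchange for Stx5a-202. These were shifts of 13.7 and 17.8 points (adjusted p = 0.00925 and 0.016). The first was lost without the first neonatal or the PN30 cardiomyocyte library (adjusted p up to 0.0572), and the second without either neonatal fibroblast library (adjusted p up to 0.0857).

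Gosr1-201, the coding isoform of Gosr1, gained 11.97 points in cardiomyocytes (74.2% and 76.2% to 89.3% and 85.04%, adjusted p = 0.0122) and changed by -11.1 points in fibroblasts without passing the test. The difference was 23.1 points (adjusted p = 0.0112). Its counterpart Gosr1-202 is a noncoding transcript of 411 nucleotides. The cardiomyocyte call was lost without the PN30 library (adjusted p = 0.0732) or the first neonatal one. Bet1-202 gained 10.4 points, and Stx18-207 and Vti1b-202 changed by -12.4 and -10.1. Bet1-202 was lost without any of 6 libraries (adjusted p up to 0.219), Stx18-207 without the second neonatal cardiomyocyte library and Vti1b-202 without the first neonatal or the PN67 one, where the share changes fell under 10 points.

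Between cell types, the share of Stx16-201 differed by -22.3 points (lower in cardiomyocytes, adjusted p = 0.0102) and that of Stx16-202 by 20.1 (adjusted p = 0.00871). Stx16-201 was at 0.187%, 1.11%, 0.163% and, at PN67, 21.6% in cardiomyocytes and at 22.6%, 43.4%, 30.7% and 15.4% in fibroblasts, so the PN67 library overlapped the fibroblasts. Vps45-201 differed by -12.4 points and Vps45-203, a noncoding transcript of 266 nucleotides, by 14.6 (adjusted p = 0.00736 and 0.00692). Napa-207, a transcript with a retained intron, differed by -10.9 points (adjusted p = 0.000109).

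In ventricles, a slope over the 5 stages was fitted, since each stage has 1 library. Of the 33 members, 4 rose and 2 fell (18.2%, against 34.9 percent of 11621 genes, 20.4 percent up and 14.6 percent down), with a median slope of 0.06 per stage against 0.01. With FPKM as deposited 2 rose and 5 fell, and with mitochondrial genes removed 2 and 4, with median slopes of all genes at -0.09 and -0.08. The count was 2 without E17 or PN90 and 3 without PN1 or PN28. No called slope of a member held under all alternatives.

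Vamp5 was at 1.33, 1.39, 2.54, 4.54 and 4.50 scaled FPKM from E17 to PN90, a slope of 0.37 ± 0.06 per stage (adjusted p = 0.00928). It was also called without any 1 library and under both other scalings, but not on a scale of log2 days after conception (adjusted p = 0.0516). Stx6 was at 8.47, 10.0, 7.68, 6.02 and 4.62 (-0.22 ± 0.06, adjusted p = 0.0356), a call lost without PN90 (adjusted p = 0.217), PN1 or PN28. The directions of Vamp5 and Stx6 were those seen in cardiomyocytes. From E17 to PN90 the summed level of 7 cardiomyocyte markers went from 10095.5 to 29842, and that of 7 leukocyte markers from 23.6 to 119.7, with 161.0 at PN28. Over the same stages 5 smooth muscle and pericyte markers went from 58.2 to 336.1 and 2 erythroid ones from 1988 to 61.8. The sum of 8 fibroblast markers went from 462.1 to 712.8, with 1015.8 at PN10. That of 6 endothelial markers went from 135.2 to 187.9, with 290.6 at PN10. Their part in the slopes was not tested.

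Vti1b went from 28.4 through 41.8, 37.4 and 62.5 to 103 (0.42 ± 0.08, adjusted p = 0.0101), with 48.4% to 61.6% of its FPKM in transcripts under 1000 nucleotides. From longer transcripts alone the slope was 0.36 (adjusted p = 0.0129), and without PN90 it was 0.32 (adjusted p = 0.0649), with E17 the other library whose removal ended the call. Stxbp2 fell from 6.53 through 3.98, 1.71 and 0.940 to 1.30 (-0.48 ± 0.09, adjusted p = 0.0122), and without E17 the call was lost (-0.38, adjusted p = 0.108). The lowest value of Stxbp2 was thus at PN28, and the highest of Vti1b at PN90.

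Stxbp3 went from 10.9 through 12.9, 13.9 and 15.7 to 16.7 (0.14 ± 0.04, adjusted p = 0.044). Snap23 was at 76.4, 73.8, 77.6, 109 and 124 (0.19 ± 0.06, adjusted p = 0.0472). Both calls were lost with FPKM as deposited (0.02 and 0.07, adjusted p = 0.748 and 0.450) and without any of 4 libraries (adjusted p up to 0.260 and 0.242). Between 65.03% and 76.03% of ventricle Snap23 FPKM was in transcripts under 1000 nucleotides, chiefly Snap23-204 of 405 nucleotides, which held at most 6.46% in cells. In ventricles 9 members had over 50% of their FPKM in such transcripts and in cells 3 (Stx8, Vamp8 and Vps45), so shares in the 2 sets are not alike.

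**Figure D5:**
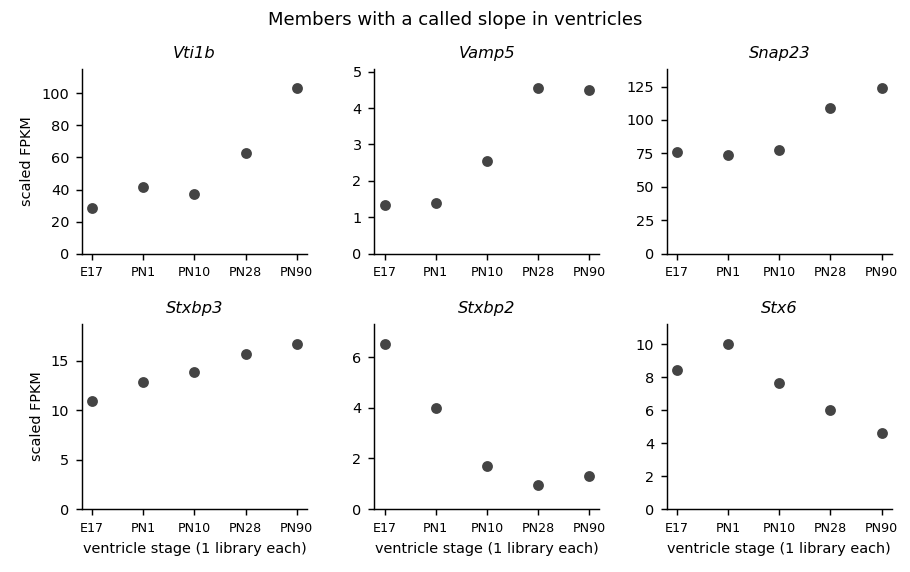
Scaled FPKM (linear axes from 0) of the 6 members with a called slope, against the 5 ventricle stages in order, with 1 point per library. Vti1b reaches 103 and Vamp5 4.50 at PN90, and Stx6 falls to 4.62.

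Of 54 member isoforms tested in ventricles, 1 was called (1.85%, against 1.62 percent): Snap23-203. Its share was 1.78% at E17, 5.94% at PN1, 10.4% at PN10, 13.05% at PN28 and 17.8% at PN90, higher at each stage than at the one before. On the fitted line this was 15.6 points (adjusted p = 0.0481), but the call was lost with 0.1 FPKM added (adjusted p = 0.0772) and without any of 4 libraries (adjusted p up to 0.345). Its deposited FPKM rose from 1.63 (bounds 1.43 to 1.83) at E17 to 18.9 (18.2 to 19.8) at PN90, and the bounds of no 2 stages overlapped. These bounds describe the estimate within 1 library, so they cannot show how far libraries of a stage would differ. Stx3 was too low in ventricles for the isoform test, with Stx3-203 at 35.2%, 39.5%, 21.9%, 43.5% and 44.7%.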

How the data were processed

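RNA was sequenced in 13 libraries. The authors deposited FPKM per transcript with 95% bounds and a coverage signal for 94696 transcripts. Alignment with TopHat2 2.0.5 to mm9 and quantification with Cufflinks 2.1.1 are listed per the submitters' processing notes, the annotation release being not given in the sources used here. Cufflinks shares fragments among isoforms by an estimate, so shares between similar isoforms are less certain. Transcript IDs were matched to GENCODE M21 for names (87.0%) and for the printed exons. Transcripts of at least 200 nucleotides were summed per gene, genes with a failed or saturated transcript (90 in cells, 64 in ventricles) were left out, and libraries were scaled by median ratios within each set.

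Where the mean reached 1 FPKM, log2(FPKM + 1) was fitted in R 4.3.3 by limma 3.58.1 (two-sided, intensity trend): 4 classes in cells (4 residual degrees of freedom), a stage slope in ventricles (3). Isoform ratios had 0.5 FPKM added to each side, in genes with a mean of at least 5 FPKM and at least 1 FPKM in every library, for shares of 5% to 95%. No count model was applied to FPKM. The precision set by depth is known only from the deposited bounds, with median half-widths of 7.17% to 8.40% of FPKM. The scripts were tested on simulated data. Some genes and sequences are not reported here.

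Members and lists were chosen with earlier results of these data known. Library values are given for members called with a log2 change of at least 1 (slope 0.25), a called isoform or a called difference of changes; from other lists, the 3 called genes with the greatest change per comparison could be named. Alternatives were the pseudocount, the low-value filter, 2 scalings, each library left out, isoform thresholds and, chosen after seeing the data, transcripts of 1000 nucleotides or more.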

Additional observations from a re-analysis of the deposited data

Results flagged for a closer look

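For 18 members, the change from neonatal to later libraries differed between cardiomyocytes and fibroblasts by the interaction test. With the sign of cardiomyocytes minus fibroblasts, on the log2(FPKM + 1) scale, these differences were 3.17 for Vamp5, 1.75 for Snap47, 1.73 for Stx17, 1.66 for Bet1, 1.20 for Vamp2 and 1.13 for Vamp1. They were 1.03 for both Vps45 and Vti1a, 0.74 for Stx8, 0.67 for Stx18 and 0.65 for Stx16. The negative differences were -3.07 for Stx6, -2.28 for Stx3, -1.02 for Stxbp2, -0.59 for Stx5a, -0.58 for Stxbp3, -0.51 for Stx12 and -0.41 for Ykt6.

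For 8 isoforms, the change in share differed in the same way, in percentage points. The difference was 41.0 for Stx3-203, 37.4 for Snap23-203, 23.1 for Gosr1-201, 15.8 for Stx4a-201 and 13.6 for Napa-201. It was -44.5 for Stx3-202, -23.9 for Snap23-202 and -23.1 for Gosr1-202. The call of Snap23-202 was lost without the first neonatal fibroblast library (adjusted p = 0.0625, limma) or the PN67 cardiomyocyte library.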

How the results depend on the processing

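No paired analysis was possible because the labels give no replicate numbers that could pair libraries. Of the 24, 15, 18, 22 and 6 member calls at gene level (cardiomyocytes, fibroblasts, their difference, cell types, ventricle slope), 15, 8, 16, 20 and 4 were also called under both other scalings, and 15, 6, 11, 21 and 1 without any 1 library. Signs turned only with scaling, for changes near 0: with mitochondrial genes removed, Napa -0.0653, Stx7 -0.0201, Vamp3 -0.0305 and Nsf -0.0049 in cardiomyocytes, and with FPKM as deposited Vamp3 -0.000176 in fibroblasts. Without stage, 11 members differed between cell types. The ventricle count was 3 with no filter on low values and 1 on log2 days after conception. At 20 points the isoform counts were 4 in cardiomyocytes, 0 in fibroblasts, 5 between cell types and 0 in ventricles. With transcripts of 1000 nucleotides or more, 4 isoform differences between the cell types' changes and 2 ventricle isoforms were called. The ventricle isoform count was 0 with 0.1 FPKM added and 0 with genes of at least 2 FPKM. Leaving out 1 library gave, at gene level in the order above, 16 to 26, 6 to 21, 11 to 21, 21 to 25 and 2 to 6 calls. For isoforms it gave 8 to 14 in cardiomyocytes, 0 to 2 in fibroblasts, 7 to 10 for the difference, 10 to 15 between cell types and 0 to 1 in ventricles. Where this leaves 1 library in a class, that library is assumed to vary like the others. The fits rest on 4 and 3 residual degrees of freedom, and depth is known only through the deposited bounds.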
